A study of Mus musculus with 10 samples.

Results

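The 9 genes described here encode enzymes that crosslink collagen: the lysyl oxidases Lox, Loxl1, Loxl2, Loxl3 and Loxl4, the lysyl hydroxylases Plod1, Plod2 and Plod3, and the transglutaminase Tgm2. They were chosen by name, and transcripts were summed per gene. All 9 were found among the 32899 genes of the table, and all 9 passed the filter on low counts, which left 14593 genes. RNA was sequenced from preadipocytes, the precursors of fat cells. They came from iSAT, the subcutaneous fat of the groin, of male mice labelled WT C57 BL6. The cells of 5 libraries were exposed to BPS (bisphenol S, an analogue of bisphenol A) at 2.5 µM in DMSO, and the cells of 5 libraries to the vehicle DMSO alone. The exposure time is not given in the sources used here, nor whether replicates came from separate animals or dishes, so p-values measure the spread between these libraries, which may be technical.

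Fibrillar collagen is made strong by covalent bonds between neighbouring molecules. Lysyl hydroxylases act first, in the endoplasmic reticulum, by adding hydroxyl groups to lysines of the new collagen chains. Outside the cell, lysyl oxidases, which are copper-dependent amine oxidases, turn lysines and hydroxylysines of collagen and elastin into aldehydes that then join into crosslinks, and they release hydrogen peroxide as they do so. Transglutaminase 2 makes a different bond, between glutamine and lysine side chains, with calcium as its cofactor. In fat, preadipocytes and other fibroblast-like cells are a main source of collagen and of these enzymes.

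For Loxl4 and Plod2 the splice forms help to read the values, so their distinguishing sequences are shown from GENCODE transcripts on build GRCm38 (the authors' build is not given in the sources used here). Plod2 has an alternative coding exon of 63 bases, exon 14 of 20, at chr9:92601985-92602047 on the plus strand. It is shown in capitals between 24 bases of each flanking exon. The form that carries it is known as the long form of lysyl hydroxylase 2, associated with hydroxylation of the collagen ends.
Plod2 with the exon: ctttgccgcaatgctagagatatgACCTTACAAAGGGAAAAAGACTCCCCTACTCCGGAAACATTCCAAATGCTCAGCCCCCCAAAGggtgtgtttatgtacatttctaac
Plod2 without the exon: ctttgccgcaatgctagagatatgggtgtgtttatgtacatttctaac

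The 2 RefSeq transcripts of Loxl4 have GENCODE counterparts that differ inside by 3 bases. Those bases, in capitals, open exon 7 of 15 at chr19:42604316-42604318 on the minus strand. The last exon, which holds the end of the message, is 1423 bases long in the longer counterpart and 299 bases in the shorter one.
Loxl4 with the 3 bases: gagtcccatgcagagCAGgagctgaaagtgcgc
Loxl4 without the 3 bases: gagtcccatgcagaggagctgaaagtgcgc

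Libraries held between 37920689 and 42717227 estimated counts in total. Levels are given as CPM, the depth-normalised count of a gene. It is relative to the counts, in its library, of all genes that passed the filter, after scaling between libraries. All 7 preadipocyte markers checked (Pdgfra, Ly6a, Cd34, Dlk1, Thy1, Dpp4 and Pi16) passed the filter. Summed over these markers, the DMSO libraries held 2417 to 2442 CPM, against 2476 to 2538 CPM for BPS. Of these, Cd34 and Thy1 were called, both as higher. Over all tested genes, 3.06% were called higher and 1.82% lower. No test compared this list, or the other marker lists below, with these shares. Mean levels of Cd34 were 45.2 ± 1.56 (DMSO) and 54.9 ± 1.89 CPM (BPS). Mean levels of Thy1 were 848 ± 7.34 (DMSO) and 968 ± 40.2 CPM (BPS). Pdgfra, Dlk1 and Dpp4 had lower means in BPS and were not called. For Pdgfra the means were 904 ± 14.4 (DMSO) and 863 ± 22.8 CPM (BPS), with an adjusted p of 0.077 by edgeR. The higher sum was thus not a rise of all 7. Of the 5 adipocyte markers 0 passed the filter, with sums of 0.05586 to 0.2028 and 0.05016 to 0.1691 CPM, and Lep was at 0 in every library. Of the 6 macrophage markers 3 passed and 0 were called, with sums of 9.331 to 15 CPM in DMSO and 10.15 to 17.61 CPM in BPS, and Csf1r was at 0. The 6 endothelial markers, of which 0 were called, summed to 17.61 to 23.02 and 16.98 to 22.89 CPM. Of the 5 mesothelial markers 2 passed, Krt19, which rose, and Wt1, which was not called. Krt19 measured 9.34 ± 0.753 CPM in DMSO and 11.2 ± 0.689 CPM in BPS. Wt1 lay the other way, at 0.849 ± 0.12 and 0.569 ± 0.188 CPM. The sums over the list, 9.057 to 11.03 and 10.99 to 12.9 CPM, were mostly Krt19, and Msln and Upk3b were at 0.

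The crosslinking genes spanned a wide range of levels, with Lox far above the rest. Levels are compared between genes as CPM per kilobase of the most abundant transcript, which corrects for length. Lox stood at 921 ± 47.7 CPM per kilobase in DMSO and 998 ± 79.0 in BPS (SD, n = 5 each), the rank of 40 among the 11394 tested genes with a known transcript length. Loxl2 (279 ± 5.92 in DMSO), Loxl1 (210 ± 4.56) and Loxl3 (180 ± 3.87 CPM per kilobase) followed. Loxl4 was the least abundant lysyl oxidase, at 7.71 ± 0.0625 CPM per kilobase in DMSO and 8.81 ± 0.273 in BPS. By this measure Lox made up 57.6 ± 1.39% of the lysyl oxidase messages in DMSO and 59.7 ± 2.20% in BPS, and Loxl4 0.483 ± 0.0115% and 0.528 ± 0.00847%.

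Among the lysyl hydroxylases Plod2 was the most abundant, at 103 ± 2.91 CPM per kilobase in DMSO. Plod1 followed with 70.7 ± 0.787 and Plod3 with 25.5 ± 1.30. Plod2 made up 51.7 ± 0.973% of the lysyl hydroxylase messages in DMSO (range 50.7 to 53.1%). In BPS its share ranged from 48.4 to 52.5% (SD 1.68), a difference in means of -1.67 percentage points with overlapping groups. The share of Plod1 was 35.5 ± 0.671% in DMSO and 36.6 ± 0.938% in BPS, and that of Plod3 12.8 ± 0.579% and 13.4 ± 0.908%. Tgm2 was the lowest of the 9 genes, at 6.74 ± 0.465 CPM per kilobase in DMSO and 7.49 ± 0.992 in BPS. The order of the 9 genes was the same in both groups, and neighbours in it were apart in every library of a group, except Loxl4 (8.34 to 9.05) and Tgm2 (6.09 to 8.67), whose BPS ranges overlapped.

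**Figure D1:**
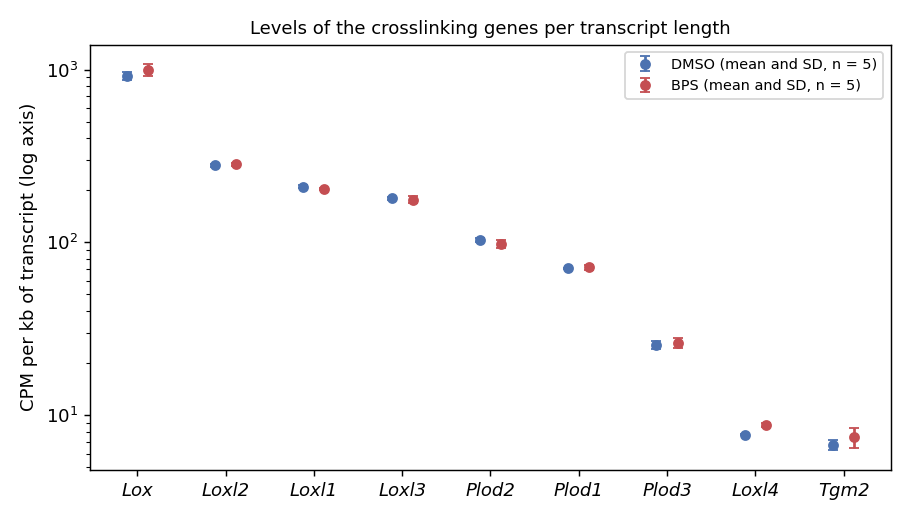
Level of each crosslinking gene in CPM per kilobase of transcript on a log axis, in DMSO and BPS (points are means and bars SD of 5 libraries). Lox lies highest at 921 and 998, and Loxl4 and Tgm2 lie lowest.

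Under BPS, 1 of the 9 crosslinking genes changed: Loxl4 rose by 14.2%. The other 8 genes did not pass the threshold, and their fitted log2 fold changes lay between -0.07 (Plod2) and 0.15 (Tgm2). Genes were tested with edgeR's quasi-likelihood test, and called at an adjusted p under 0.05 after Benjamini-Hochberg adjustment over all 14593 genes. That test called 4.87% of all genes (711), 3.06% as higher and 1.82% as lower. The 1 called gene of 9 (11.1%) is too few to set apart from that share. The median log2 fold change of the 9 genes was 0.02 (6 positive), against 0.0003 over all genes tested, and their median absolute log2 fold change was 0.05 against 0.06. The groups did not overlap for 2 of the 9 genes, Loxl4 and Loxl1, beside 6.9% of all tested genes (4.18% higher and 2.72% lower in BPS). Loxl4 lay higher and Loxl1 lower.

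Loxl4 encodes a lysyl oxidase with scavenger receptor repeats ahead of its catalytic domain. Its level was 29.0, 28.6, 29.1, 28.5 and 28.9 CPM in DMSO replicates 1 to 5, and 31.2, 33.2, 33.4, 33.1 and 33.8 CPM in BPS replicates 1 to 5. All 5 BPS libraries lay above all 5 DMSO libraries, and BPS replicate 1 was the lowest of its group. The log2 fold change was 0.19 (SE 0.03, 95% interval 0.13 to 0.25), with an adjusted p of 0.00192 by edgeR. These values rest on 1036 to 1243 counts per library. The DMSO SD, 0.234 CPM, was smaller than the 0.873 CPM that counting error alone gives at that depth, so the spread of the 5 DMSO values understates their error. edgeR's test does not take the spread of a single gene alone, since it shares information on the spread across genes. Whether this sharing makes up for the low DMSO spread was not tested. The SE, interval and adjusted p of Loxl4 may therefore still be too small. Over 19 alternatives at gene level the adjusted p ranged from 2.48e-05 to 0.0194, by edgeR, DESeq2 or limma.

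The call for Loxl4 belongs to the sum of its 2 transcripts. The transcript without the 3 capital bases is also the longer one, with the last exon of 1423 bases. All transcript shares given here rest on how the authors' software divided reads that transcripts have in common. They do not measure the use of the 3 bases alone. The longer transcript held 88.3, 88.3, 73.2, 37.7 and 67.3% of the gene's counts in DMSO replicates 1 to 5, and 82.9, 88.6, 73.9, 76.0 and 64.0% in BPS replicates 1 to 5. This share scattered far more than the gene's level, and the groups overlapped (77.1 ± 9.35% in BPS against 71.0 ± 20.8% in DMSO, SD, n = 5 each; adjusted p = 0.942, exact two-sided permutation test, 4 shares). Tested as separate transcripts, the log2 fold changes were 0.31 (SE 0.21) and -0.14 (SE 0.50), with adjusted p of 0.968 and 1.0 by edgeR over 37588 transcripts.

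Loxl4 was one of 3 crosslinking genes with an entry in the table of RefSeq promoters (build GRCm38.p6). The 250 bases before its start, chr19:42612807-42613056 on the minus strand, are shown because it is the gene that changed. Capitals mark a match to GCGTG, read here on the opposite strand as CACGC, a core motif shared by the binding sites of the aryl hydrocarbon receptor and of hypoxia-inducible factors.
Loxl4 promoter: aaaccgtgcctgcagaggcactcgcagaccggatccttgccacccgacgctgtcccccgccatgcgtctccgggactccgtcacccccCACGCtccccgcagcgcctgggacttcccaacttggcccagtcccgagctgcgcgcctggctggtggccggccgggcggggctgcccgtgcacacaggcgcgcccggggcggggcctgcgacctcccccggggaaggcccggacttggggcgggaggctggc
GCGTG and ACGTG were searched on both strands, and matches that overlapped each other were each counted. The Loxl4 stretch held 1 match to GCGTG and 0 to ACGTG. The Plod1 stretch, whose gene was not called, also held 1 match to GCGTG, and the Plod3 stretch 3 to GCGTG and 1 to ACGTG. Of 32851 promoter stretches of this length, 28.2% held GCGTG, 16.6% held ACGTG and 38.6% held either. The match is a description of letters in the sequence. The Loxl4 stretch was 76.0% G and C, against a median of 52.4%.

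**Figure D2:**
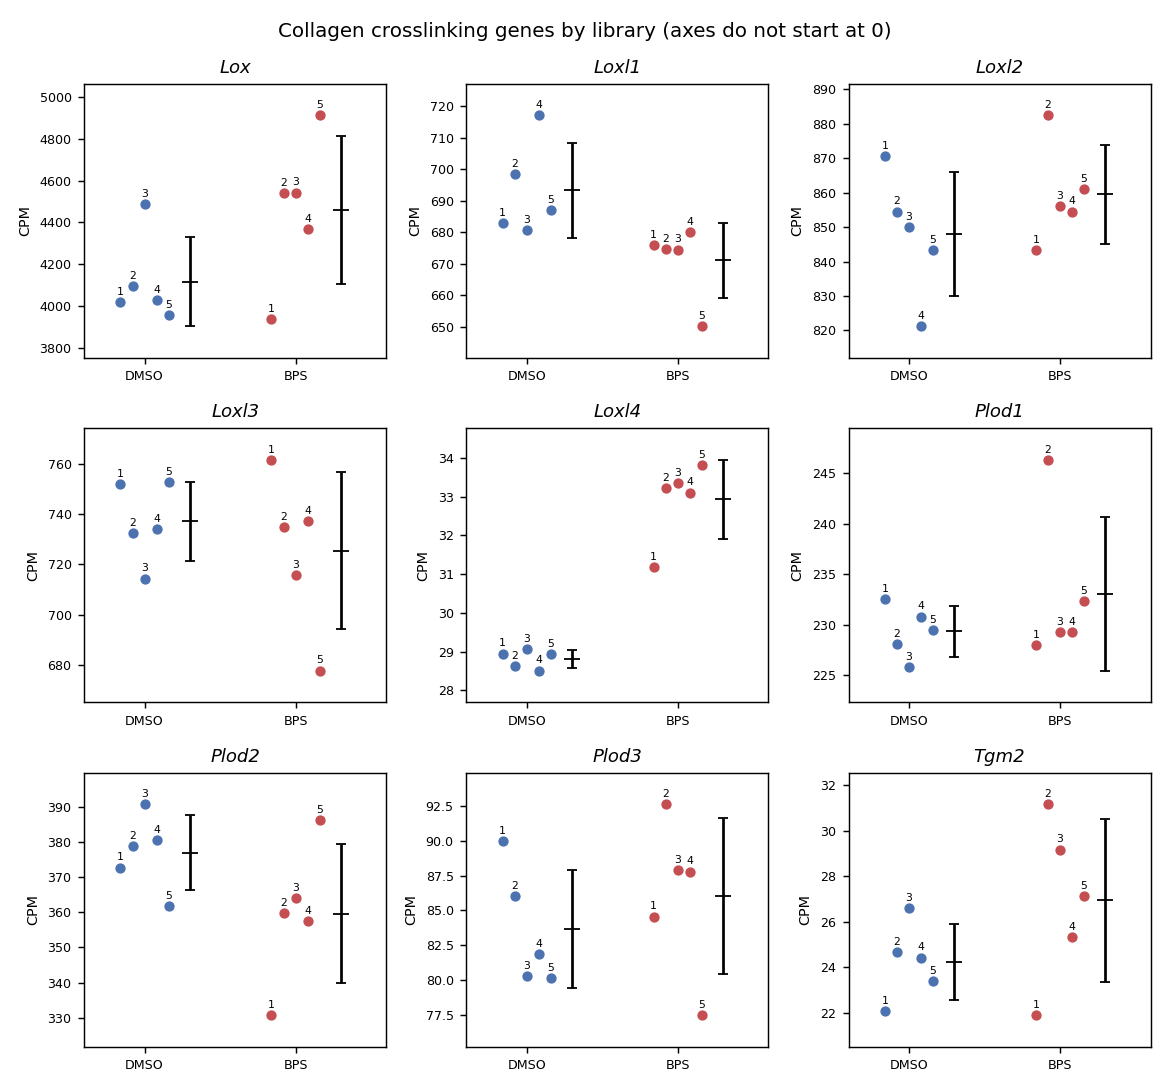
CPM of each of the 9 genes in the 5 DMSO and 5 BPS libraries (numbers are replicate numbers, black bars mean and SD), on axes that do not start at 0. The groups are apart for Loxl4 and, narrowly, for Loxl1, and overlap for the other 7 genes.

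Lox encodes the founding lysyl oxidase, which oxidizes fibrillar collagen and elastin. It stood at 4017, 4095, 4487, 4027 and 3956 CPM in DMSO replicates 1 to 5. In BPS replicates 1 to 5 it stood at 3938, 4541, 4542, 4366 and 4912 CPM. The groups overlapped at both ends: BPS replicate 1 was the lowest of all 10 libraries, and DMSO replicate 3 lay above BPS replicate 4. The log2 fold change was 0.12 (SE 0.05, 95% interval 0.0032 to 0.23, not adjusted for the number of genes), and the adjusted p was 0.254 by edgeR. Without BPS replicate 1 it was 0.16, with an adjusted p of 0.0499 by edgeR, and the other 18 alternatives at gene level did not call it.

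Lox counts were divided mainly between 2 RefSeq transcripts, whose GENCODE counterparts were 4468 bases (the more abundant) and 4741 bases long. The more abundant one held 56.5 ± 1.17% of the counts in DMSO and 56.5 ± 2.08% in BPS (SD, n = 5 each; adjusted p = 0.944, exact two-sided permutation test, 4 shares). Both transcripts had fitted log2 fold changes near that of the gene, 0.11 (SE 0.06) and 0.12 (SE 0.07), with adjusted p of 0.828 and 0.887 by edgeR over all transcripts.

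Loxl1, an enzyme known for its part in elastic fibre upkeep, measured 683, 699, 681, 717 and 687 CPM in DMSO replicates 1 to 5 and 676, 675, 675, 680 and 650 CPM in BPS replicates 1 to 5. All BPS libraries lay below all DMSO libraries, but the highest BPS value (680.1 CPM) and the lowest DMSO value (680.7 CPM) were almost equal. The log2 fold change was -0.05 (SE 0.02, 95% interval -0.09 to -0.0072) and the adjusted p was 0.182 by edgeR. No alternative at gene level called it, with adjusted p between 0.0865 and 0.311.

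Loxl2, which acts on the basement membrane collagen IV as well as on fibrillar collagen, ranged from 821 to 871 CPM in DMSO and from 843 to 883 CPM in BPS. Its log2 fold change was 0.02 (SE 0.02, 95% interval -0.02 to 0.06, adjusted p = 0.625 by edgeR). Loxl3 ranged from 714 to 753 CPM in DMSO and from 678 to 762 CPM in BPS, with a log2 fold change of -0.02 (SE 0.03, 95% interval -0.08 to 0.04, adjusted p = 0.732 by edgeR). For both genes the groups overlapped. Loxl3 overlaps the neighbouring gene Htra2 in the RefSeq annotation, and the strand setting of the counting is not given (the library kit marks strand, per the labels), so reads of the shared stretch could be divided between the 2 genes. Of the Loxl2 counts, the main transcript held 87.3 ± 3.21% in DMSO and 84.4 ± 1.78% in BPS (SD, n = 5 each; adjusted p = 0.476, exact two-sided permutation test, 4 shares).

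Ratios within a library compare genes without any scaling of the libraries. The ratios of Loxl4 to the other lysyl oxidases were taken after its call had been seen, so they are given without a test. On the log2 scale of counts, Loxl4 over Loxl1 was -4.59 ± 0.042 in DMSO and -4.35 ± 0.062 in BPS, Loxl4 over Loxl2 -4.88 ± 0.026 and -4.71 ± 0.037, and Loxl4 over Loxl3 -4.68 ± 0.033 and -4.46 ± 0.103 (SD, n = 5 each). In these 3 ratios the groups did not overlap, except that the lowest BPS value of Loxl4 over Loxl3 (-4.61) lay only just above the highest DMSO value (-4.62). Loxl4 over Lox was -7.16 ± 0.068 in DMSO and -7.08 ± 0.074 in BPS, and its groups overlapped.

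Plod2, the lysyl hydroxylase of the collagen ends, stood at 373, 379, 391, 381 and 362 CPM in DMSO replicates 1 to 5. It stood at 331, 360, 364, 357 and 386 CPM in BPS replicates 1 to 5. BPS replicates 1, 2 and 4 lay below every DMSO library, while BPS replicate 5 lay among the highest DMSO values. The log2 fold change was -0.07 (SE 0.03, 95% interval -0.14 to 0.0083) and the adjusted p was 0.329 by edgeR (0.119 to 0.509 over the alternatives at gene level). Without BPS replicate 1 the log2 fold change was -0.04.

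Nearly all Plod2 counts went to the long form with the 63-base exon shown above. The GENCODE counterparts with and without the exon are 3663 and 3649 bases long, so they also differ outside it. Whether the division of reads rested on the exon or on those other bases was not tested. The share of the long form was 98.9, 98.7, 100, 99.3 and 99.5% in DMSO replicates 1 to 5 and 98.8, 99.1, 99.4, 99.2 and 99.3% in BPS replicates 1 to 5. The groups overlapped (99.3 ± 0.520% against 99.2 ± 0.211%, SD, n = 5 each; adjusted p = 0.942, exact two-sided permutation test, 4 shares). The form without the exon had 0 to 199 estimated counts per library, and was at 0 in DMSO replicate 3.

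**Figure D3:**
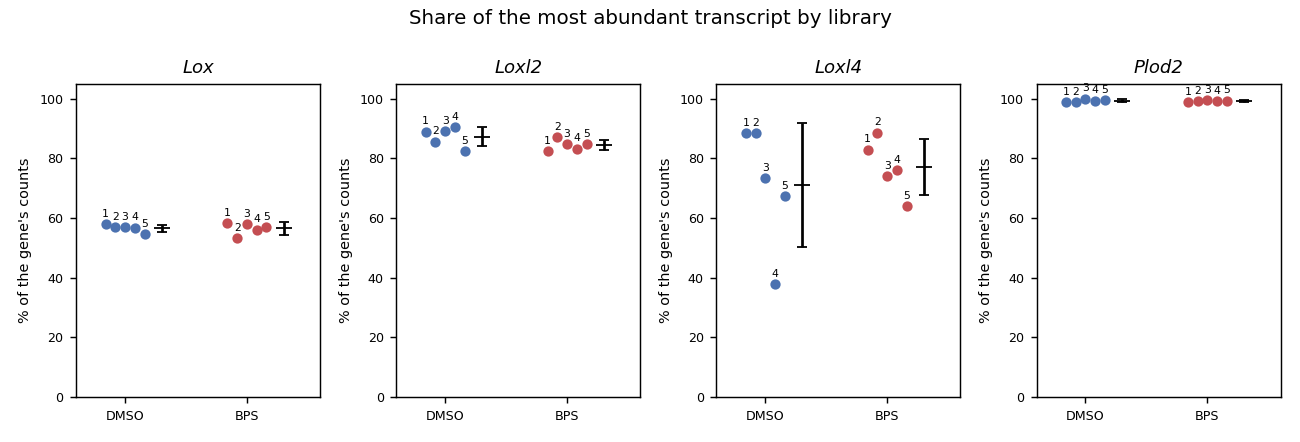
Share of a gene's estimated counts in its most abundant transcript, by library, for the 4 crosslinking genes with several transcripts (black bars mean and SD of 5 libraries). Plod2 is at 98.7 to 100% in every library, and Loxl4 scatters from 37.7 to 88.6%.

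Plod1, which hydroxylates the helical part of collagen, ranged from 226 to 233 CPM in DMSO and from 228 to 246 CPM in BPS. BPS replicate 2, at 246 CPM, stood above all other libraries. The log2 fold change was 0.02 (SE 0.02, 95% interval -0.02 to 0.07, adjusted p = 0.631 by edgeR). Plod3, which also attaches sugars to hydroxylysine, ranged from 80.1 to 90.0 CPM in DMSO and from 77.5 to 92.6 CPM in BPS, with a log2 fold change of 0.04 (SE 0.05, 95% interval -0.06 to 0.14, adjusted p = 0.708 by edgeR). Plod3 overlaps the neighbouring gene Znhit1 in the RefSeq annotation, with the same limit as for Loxl3.

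Tgm2, the tissue transglutaminase, stood at 22.1, 24.7, 26.6, 24.4 and 23.4 CPM in DMSO replicates 1 to 5 and at 21.9, 31.2, 29.2, 25.3 and 27.2 CPM in BPS replicates 1 to 5. It had the widest spread of the 9 genes, with a coefficient of variation of 13.2% in BPS and 6.90% in DMSO. BPS replicates 2, 3 and 5 lay above every DMSO library, and BPS replicate 1 below every one of them. The log2 fold change was 0.15 (SE 0.08, 95% interval -0.03 to 0.33) and the adjusted p was 0.377 by edgeR. A change of the size seen for Loxl4 thus lies within the interval of Tgm2, and also within that of Lox (0.0032 to 0.23). Without BPS replicate 2 the log2 fold change of Tgm2 was 0.09 (adjusted p = 0.616 by edgeR), and without BPS replicate 1 it was 0.22 (adjusted p = 0.0887 by edgeR). The other transglutaminases were scarce: Tgm1 ranged from 1.74 to 2.28 CPM over the 10 libraries, F13a1 from 0.307 to 0.919 CPM, and Tgm3 and Tgm5, with 2 to 14 and 0 to 1 counts per library, did not pass the filter. Of the 2 that were tested 0 rose and 0 fell.

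BPS replicate 1 had the lowest value of its group in Lox, Loxl2, Loxl4, Plod1, Plod2 and Tgm2 and the highest in Loxl3. BPS replicate 5 had the highest value in Lox, Loxl4 and Plod2 and the lowest in Loxl1, Loxl3 and Plod3. Without BPS replicate 1, 2 of the 9 genes were called, Loxl4 and Lox, in place of 1. That fit called 773 of all 14689 genes tested, and Lox passed only narrowly (adjusted p = 0.0499 by edgeR).

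A set of 7 ratios was tested with exact two-sided permutation tests over the 10 libraries, where the smallest p that 5 against 5 allows is 0.00794. None passed after adjustment over the 7. Lox over Col1a1, the enzyme relative to the main chain of its substrate, was -2.41 ± 0.040 in DMSO and -2.30 ± 0.073 in BPS on the log2 scale of counts (SD, n = 5 each; exact permutation p = 0.0238, adjusted p = 0.139). Plod2 over Col1a1 was -5.86 ± 0.012 and -5.93 ± 0.057 (exact permutation p = 0.0397, adjusted p = 0.139). Plod2 over Plod1 was 0.716 ± 0.052 and 0.625 ± 0.083, and Lox over Loxl1 2.57 ± 0.089 and 2.73 ± 0.135 (exact permutation p = 0.0794 and 0.0635, adjusted p = 0.139 for each). The remaining ratios, Plod2 over Plod3, Lox over Loxl2 and Tgm2 over Lox, had adjusted p of 0.222, 0.200 and 0.690 by the same exact test.

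The genes that work beside these enzymes were taken from 4 lists chosen by function: modification and folding of collagen, processing and assembly with lysyl oxidase activation and copper supply, the collagen and elastin substrates, and other transglutaminases. Of 42 tested genes on them, 5 rose and 1 fell, or 14.3%, beside 4.87% of all tested genes (3.06% higher and 1.82% lower). Their median log2 fold change was 0.02, against 0.0003 over all genes. The lists were chosen by hand with earlier results of these data known, and no test compared them with other genes. The choice itself may have raised their share of called genes, so 14.3% against 4.87% is a description only. Among the 6 substrates (Col1a1, Col1a2, Col3a1, Col5a1, Col5a2 and Eln) 0 rose and 0 fell. For Col1a1 the means were 21820 ± 652 CPM (DMSO) and 21910 ± 1061 CPM (BPS), with a log2 fold change of 0.0057 (SE 0.03, 95% interval -0.06 to 0.07, adjusted p = 0.951 by edgeR).

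Among the 15 genes for collagen modification and folding, 2 rose and 0 fell (13.3% called, beside 4.87% of all tested genes), too few to set apart from that share. Fkbp10, a chaperone that assists lysyl hydroxylation of the collagen ends, ranged from 390 to 396 CPM in DMSO and from 403 to 425 CPM in BPS, and the groups did not overlap (fitted log2 change 0.08 with SE 0.02; adjusted p = 0.0187 by edgeR). P4ha3, a catalytic subunit of prolyl hydroxylase, ranged from 227 to 234 and from 237 to 244 CPM, also without overlap (fitted log2 change 0.06 with SE 0.01; adjusted p = 0.0462 by edgeR).

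Among the 19 genes for processing, assembly, lysyl oxidase activation and copper supply, 3 rose and 1 fell (21.1% called, beside 4.87% of all tested genes), again a small count. Thbs1, an adhesive matrix glycoprotein, went from 3071 ± 131 to 3746 ± 125 CPM (SD, n = 5 each; fitted log2 change 0.29 with SE 0.03, adjusted p = 0.000305 by edgeR). Postn, a matricellular protein that brings the activating protease Bmp1 to the matrix, went from 2937 ± 109 to 3261 ± 68.5 CPM (fitted log2 change 0.15 with SE 0.02; adjusted p = 0.00558 by edgeR). For these 2 genes the groups did not overlap.

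Fmod, a small proteoglycan that binds collagen and lysyl oxidase, ranged from 14.6 to 21.3 CPM in DMSO and from 20.6 to 24.8 CPM in BPS, so the groups overlapped (fitted log2 change 0.34 with SE 0.09; adjusted p = 0.0488 by edgeR). Efemp2, also called fibulin 4, which tethers lysyl oxidase to elastin, was the gene that fell, from 476 ± 12.8 to 450 ± 6.59 CPM (SD, n = 5 each; fitted log2 change -0.08 with SE 0.02, adjusted p = 0.0370 by edgeR). Bmp1 itself, which cleaves the propeptides of lysyl oxidase and of collagen, measured 501 ± 10.7 CPM (DMSO) and 502 ± 6.52 CPM (BPS) (log2 fold change 0.0005, 95% interval -0.04 to 0.04, adjusted p = 0.991 by edgeR).

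**Figure D4:**
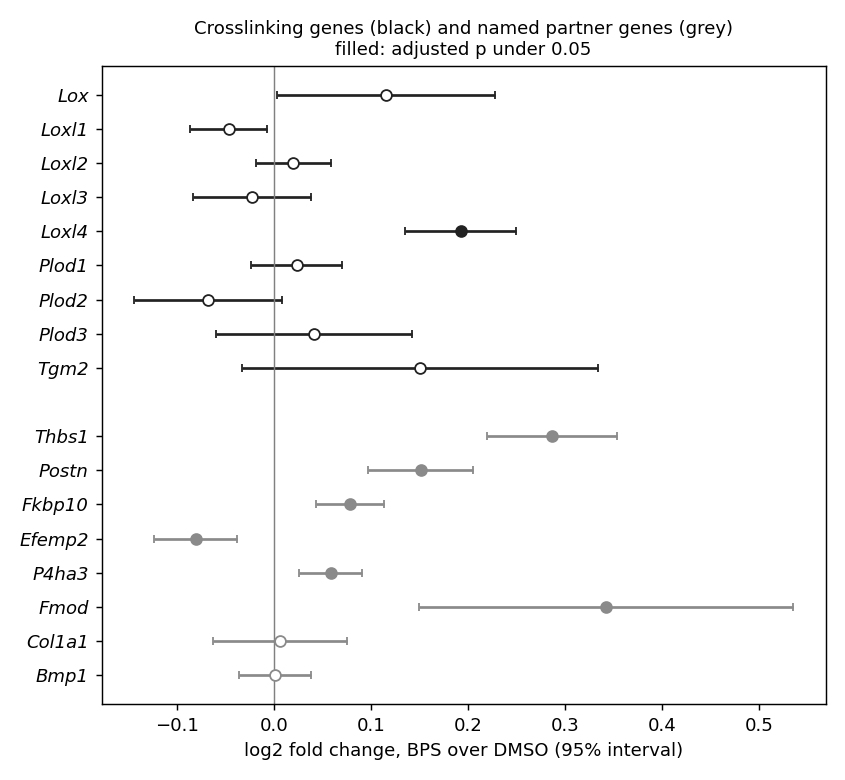
Fitted log2 fold change of BPS over DMSO with its 95% interval for the 9 crosslinking genes (black) and for partner genes named in the text (grey), filled where the adjusted p was under 0.05. Loxl4 is the filled point among the crosslinking genes, at 0.19, and Tgm2 has the widest interval of the 9.

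Of 6 markers of mural cells, the contractile cells around vessels, 3 rose under BPS (Acta2, Des and Cspg4). Over all tested genes the share called higher was 3.06%, and no test compared this small list with them. The other 3 (Rgs5, Notch3 and Myh11) did not pass the test. The summed level of the 6 was 1066 to 1141 CPM in DMSO and 1377 to 1481 CPM in BPS, and nearly all of it was Acta2, at 1040 ± 29.3 and 1340 ± 41.0 CPM (SD, n = 5 each). Des measured 13.2 ± 0.501 and 21.0 ± 2.02 CPM, and Cspg4 39.1 ± 1.22 and 43.5 ± 2.63 CPM. Notch3 measured 15.4 ± 0.693 and 15.9 ± 0.699 CPM, Rgs5 3.55 ± 0.376 and 3.84 ± 0.357 CPM, and Myh11 2.05 ± 0.330 and 2.38 ± 0.126 CPM. Which cells carried the RNA of these markers was not tested, nor was any link to the rise of Loxl4, or of Thbs1 and Postn. In bulk RNA, more cells of a type and more RNA per cell cannot be told apart.

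The genes whose pattern over the 10 libraries lay closest to that of Loxl4 were sought among 9198 tested genes with a mean of at least 10 CPM. The measure was the root mean square difference of log2 CPM after each gene was centred on its own mean, and its median over the candidates was 0.115. Pdlim5 (0.0234), Lbh (0.0245) and Klf13 (0.0247) were nearest, with log2 fold changes of 0.16, 0.21 and 0.16. For Lox they were Ccn4 (0.0213), Amotl2 (0.0356) and Heph (0.0369), against a median of 0.118. Ccn4, Amotl2 and Heph had log2 fold changes of 0.13, 0.08 and 0.09 and, like Lox, were not called (adjusted p 0.135, 0.301 and 0.291 by edgeR). The measure includes the difference between the groups. Fold changes near those of Loxl4 and Lox thus follow from how the genes were picked, and are no separate result.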

How the data were processed

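Per the submitters' processing notes the authors used kallisto 0.42.4, which assigns reads to transcripts by pseudoalignment. The deposited values are estimated counts per RefSeq transcript, 1 column per library, fractional and not scaled to a common depth. The index, genome build and strand setting are not given in the sources used here. All 10 columns carried a library code of the labels, and 0 were left without a sample.

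Of 107384 transcripts, 86714 were matched to a gene by accession without version in a RefSeq table (GRCm38.p6, names only), with 93.09% of the counts. Counts were summed per gene, rounded, filtered with filterByExpr, scaled by TMM (factors 0.9854 to 1.008) and tested with edgeR 4.0.16 in R 4.3.3, and p-values were adjusted by Benjamini-Hochberg over every gene in the fit. SE is the unshrunken log2 fold change over the square root of F. The code was tested on simulated counts in which every seeded change was larger than that of Loxl4. That test therefore does not show how well changes as small as that of Loxl4 are found. Permutation tests used scipy 1.17.1. DESeq2 1.42.0 and limma 3.58.1 served as alternatives. Transcript lengths came from GENCODE M21, matched to RefSeq accessions, and may differ from those of the authors' index.

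The 9 genes and all lists were chosen with earlier results of these data known. Genes named beside the 9 were Col1a1, Bmp1, up to 5 called genes per list with the smallest p, and the 3 genes most alike. The markers named to describe other cell types, and Tgm1, Tgm3, Tgm5 and F13a1, were added to give the counts of their lists. Library codes run through DMSO and then through BPS, so a batch in that order and the groups cannot be told apart.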

Additional observations from a re-analysis of the deposited data

Results flagged for a closer look

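Of 48 groups of 5 values checked with Dixon's criterion at the 95% level (9 genes, 11 ratios and 4 transcript shares in each group), 6 had a library apart from the rest, where chance gives about 1 in 20, or 2.4. Ratios share their genes, so these groups are not independent.

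Lox was high in DMSO replicate 3, at 4487 CPM against 3956 to 4095 CPM in the other DMSO libraries. Loxl4 was low in BPS replicate 1, at 31.18 CPM against 33.1 to 33.82 CPM, still above every DMSO library. Loxl1 was low in BPS replicate 5, at 650.1 CPM against 674.5 to 680.1 CPM. Plod1 was high in BPS replicate 2, at 246.3 CPM against 228.0 to 232.3 CPM. The log2 ratio of Plod2 over Plod3 was high in BPS replicate 5, at 2.317 against 1.958 to 2.05. The log2 ratio of Tgm2 over Lox was low in DMSO replicate 1, at -7.506 against -7.401 to -7.365.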

How the results depend on the processing

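Loxl4 kept its direction and its call in all 19 alternatives at gene level, with log2 fold changes of 0.18 to 0.21. The number of called crosslinking genes was 1 in these, except without BPS replicate 1, where it was 2 (range 1 to 2 over the 10 fits that each left out a library). It was 0 when transcripts were tested without summing, which splits the counts of Loxl4. That test called transcripts of 119 genes. The count of all called genes, 711, was 371 with the replicate block, of which 347 were shared (Loxl4 then had an adjusted p of 0.0194 by edgeR), and 327 with exact version matching, which had fewer genes to test and could not test Loxl3. The correlation between deviations of the DMSO and BPS libraries that share a number was 0.1, 0.004, -0.067, 0.072 and -0.078 for numbers 1 to 5, which gives no pairing. Leaving out each library in turn gave counts between 449 and 773, with 449 without DMSO replicate 2 and 462, 465 and 462 without BPS replicates 2, 3 and 4. The cause was not tested. Scaling, filter, DESeq2 and limma-voom alternatives gave 551 to 951.

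Signs turned when single libraries were left out for the Loxl3 log2 fold change (-0.0411 to 0.0006), Tgm2 over Lox (-0.0163 to 0.0618), and the transcript shares in percentage points of Lox (-0.547 to 0.777), Plod2 (-0.263 to 0.0738) and Loxl4 (-2.18 to 10.5). None of these was called in any setting tried.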
